A study of Gallus gallus with 12 samples.

Results

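The hairpins described here are miR-10a, miR-10b, miR-99a, miR-100 and miR-125b, 5 of the 850 hairpins in the chicken-aligned table of a small RNA study of early chicken embryos. They were chosen by name, with earlier results of these data known, among them the uneven levels between replicates. Of the 5 names, 4 equal a row of the table (gga-mir-10a, gga-mir-10b, gga-mir-99a and gga-mir-100). The name gga-mir-125b stands in RefSeq as a synonym of gga-mir-125b-2, which was used for it. The second miR-125b hairpin, gga-mir-125b-1, is given beside it and is not counted among the 5. All 5 passed the filter for testing, which asks for 10 normalized reads or more on average across the 12 libraries and which 132 hairpins passed in all.

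The study asked what changes when the embryonic miRNA miR-302 is lost or raised. Chicken embryos were electroporated with a GFP vector and with constructs meant either to delete the chicken's own miR-302 or to overexpress the human one, and grew to Hamburger-Hamilton stage HH4-5, around gastrulation. Cells were then sorted by GFP. The 4 groups of 3 libraries each are GFP+ and GFP− cells labelled knockdown, and GFP+ and GFP− cells labelled overexpression. All 4 groups come from electroporated embryos, so the GFP− cells are neighbours that did not pass the GFP gate rather than cells of untouched embryos. The labels do not say how many embryos went into a library or whether replicates came from separate embryos. P-values therefore measure the spread between these libraries, which may be technical. In sorted bulk RNA, fewer cells of a type and less RNA per cell cannot be told apart.

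A miRNA hairpin is cut to a short mature strand whose seed, a stretch near its 5′ end, pairs with target mRNAs. The miR-10 genes lie inside the Hox clusters, whose protein genes set position along the body axis, and vertebrate miR-10 is best known from posterior neural tube and mesoderm. miR-99a and miR-100 are ancient relatives of miR-10 whose seed is shifted along a similar sequence, so that they address other targets. miR-125b is the vertebrate relative of worm lin-4, a timing gene, and like let-7 it is known for rising as cells differentiate.

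In the RefSeq gene table (assembly GRCg7b, used for names and neighbours only), MIR10A lies inside HOXB3 and MIR10B inside HOXD3. MIR99A, MIRLET7C and MIR125B2 follow each other as neighbouring miRNA genes between USP25 and TSTD1. MIR100, MIRLET7A2 and MIR125B-1 form a second group of the same make-up between UBASH3B and SORL1, with MIR6675 also among them. The chicken table thus holds a pair of Hox-linked genes and 2 sets of a miR-99/miR-100, let-7 and miR-125b gene. The deposited table lists mature arms as well as hairpins, but all of its 1389 mature arm entries are at 0, so nothing can be said of single arms.

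Depth differed widely. Libraries labelled knockdown held 49276 to 82211 hairpin reads in GFP+ cells and 277633 to 435716 in GFP− cells. Libraries labelled overexpression held 1292 to 3856 reads in GFP+ cells and 7546 to 277637 in GFP− cells. A single read weighed 6.68, 24.4 and 15.9 normalized reads in replicates 1, 2 and 3 of overexpression GFP+ cells, and a count of 0, read as a limit of 3 reads, allows up to 20.1, 73.1 and 47.6 normalized reads. The summed miR-302 hairpins of the chicken-aligned table were 17850, 11870 and 17570 normalized reads in knockdown GFP+ cells, against 22210, 17780 and 19730 in their GFP− partners. The sums were 4010, 8458 and 4980 in overexpression GFP+ cells and 6165, 17930 and 10050 in overexpression GFP− cells. In the human-aligned table, where the human construct would be read, the sums were 2562, 4987 and 3132 in overexpression GFP+ cells and 2499, 8835 and 3872 in overexpression GFP− cells. Knockdown GFP+ cells thus held less miR-302 than their GFP− partners in every pair. Overexpression GFP+ cells did so in every pair of the chicken-aligned table and in all but replicate 1 of the human-aligned table. The human-aligned sums also hold the chicken's own miR-302, since knockdown libraries reached 5033 to 9765 normalized reads there. They therefore cannot show whether the human construct was expressed. Arm names below are the labels' own.

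The 5 hairpins were of middling abundance among the 132 tested hairpins. By the mean over the 12 libraries they ranked from place 44 of 850 (miR-10a, 104 normalized reads) through miR-100 (88.2), miR-125b-2 (42.8) and miR-10b (36.6) to place 101 (miR-99a, 21.98). The rank of single members rests on few libraries, as the values below show. miR-10c and the miR-196 hairpins, the other members of the Hox-cluster list, had means of 0.0942 to 4.52 and fell under the filter.

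miR-10a, whose gene lies within HOXB3, stood at 19.9, 36.1 and 18.4 normalized reads in replicates 1, 2 and 3 of knockdown GFP+ cells, against 49.3, 8.82 and 15.7 in knockdown GFP− cells. In overexpression GFP+ cells it stood at 53.5, 609 and 159, against 11.7, 163 and 102 in overexpression GFP− cells. Replicate 2 was the highest and replicate 1 the lowest in both kinds of overexpression cells, and in knockdown GFP− cells the order was turned round, with replicate 1 highest and replicate 2 lowest. Knockdown GFP+ cells had replicate 2 highest and replicate 3 lowest. The exact Poisson intervals of the highest and lowest library did not touch in any of the 4 groups, so the unevenness exceeded counting error.

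miR-10b, whose gene lies within HOXD3, followed miR-10a at a lower level. It stood at 2.60, 3.80 and 3.90 normalized reads in knockdown GFP+ cells, against 10.7, 0.630 and 2.50 in knockdown GFP− cells. In the overexpression arm it stood at 0, 292 and 15.9 in GFP+ cells, against 3.91, 66.3 and 37.0 in overexpression GFP− cells. The 0 rests on a library where it allows up to 20.1 normalized reads. Again replicate 2 was highest and replicate 1 lowest in the overexpression arm, and replicate 1 highest in knockdown GFP− cells, while the 3 knockdown GFP+ libraries lay within counting error of each other.

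miR-100 ran the other way, except in knockdown GFP+ cells. It stood at 42.5, 95.6 and 38.5 normalized reads in knockdown GFP+ cells, against 10.2, 36.9 and 16.3 in knockdown GFP− cells. It stood at 334, 0 and 159 in overexpression GFP+ cells, against 184, 16.4 and 125.4 in overexpression GFP− cells. Replicate 1 was highest and replicate 2 lowest in both kinds of overexpression cells, which is the reverse of miR-10a and miR-10b in the same libraries. The 0 in overexpression GFP+ replicate 2 allows up to 73.1 normalized reads, below the 248 at the lower end of the Poisson interval of replicate 1. In both kinds of knockdown cells replicate 2 was the highest. For knockdown GFP− cells this was again the reverse of miR-10a, but in knockdown GFP+ cells miR-10a had the same order as miR-100.

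miR-99a followed miR-100 at a lower level. It stood at 16.5, 46.1 and 20.6 normalized reads in knockdown GFP+ cells, against 3.70, 7.88 and 6.19 in knockdown GFP− cells. The overexpression arm had 60.2, 0 and 15.9 in GFP+ cells, against 66.4, 0.819 and 19.6 in overexpression GFP− cells. The GFP− libraries of this arm span an 81.1-fold range, with 1 read in replicate 2 and 17 reads in replicate 1, although replicate 1 is the shallower library. The 3 overexpression GFP+ libraries, with 9, 0 and 1 reads, could not be told apart at this depth.

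miR-125b-2, the last gene of the MIR99A group, was the steadiest of the 5 in the knockdown arm. It stood at 57.2, 68.0 and 74.2 normalized reads in knockdown GFP+ cells, against 14.5, 11.8 and 11.3 in knockdown GFP− cells. In overexpression GFP+ cells it stood at 107, 73.1 and 15.9, from 16, 3 and 1 reads, against 46.9, 9.01 and 24.7 in overexpression GFP− cells. The knockdown groups lie apart by a wide margin, and the overexpression groups overlap. Its second hairpin miR-125b-1, beside MIR100 and MIRLET7A2, stood at 22.5, 69.0 and 36.3 in knockdown GFP+ cells, against 9.67, 9.14 and 7.89 in knockdown GFP− cells. In overexpression GFP+ cells miR-125b-1 stood at 53.5, 0 and 31.7, against 11.7, 11.5 and 13.6 in overexpression GFP− cells. Both hairpins yield the same mature miR-125b, and how reads that fit both were shared out is not stated, so the split between the 2 hairpins is uncertain.

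**Figure D1:**
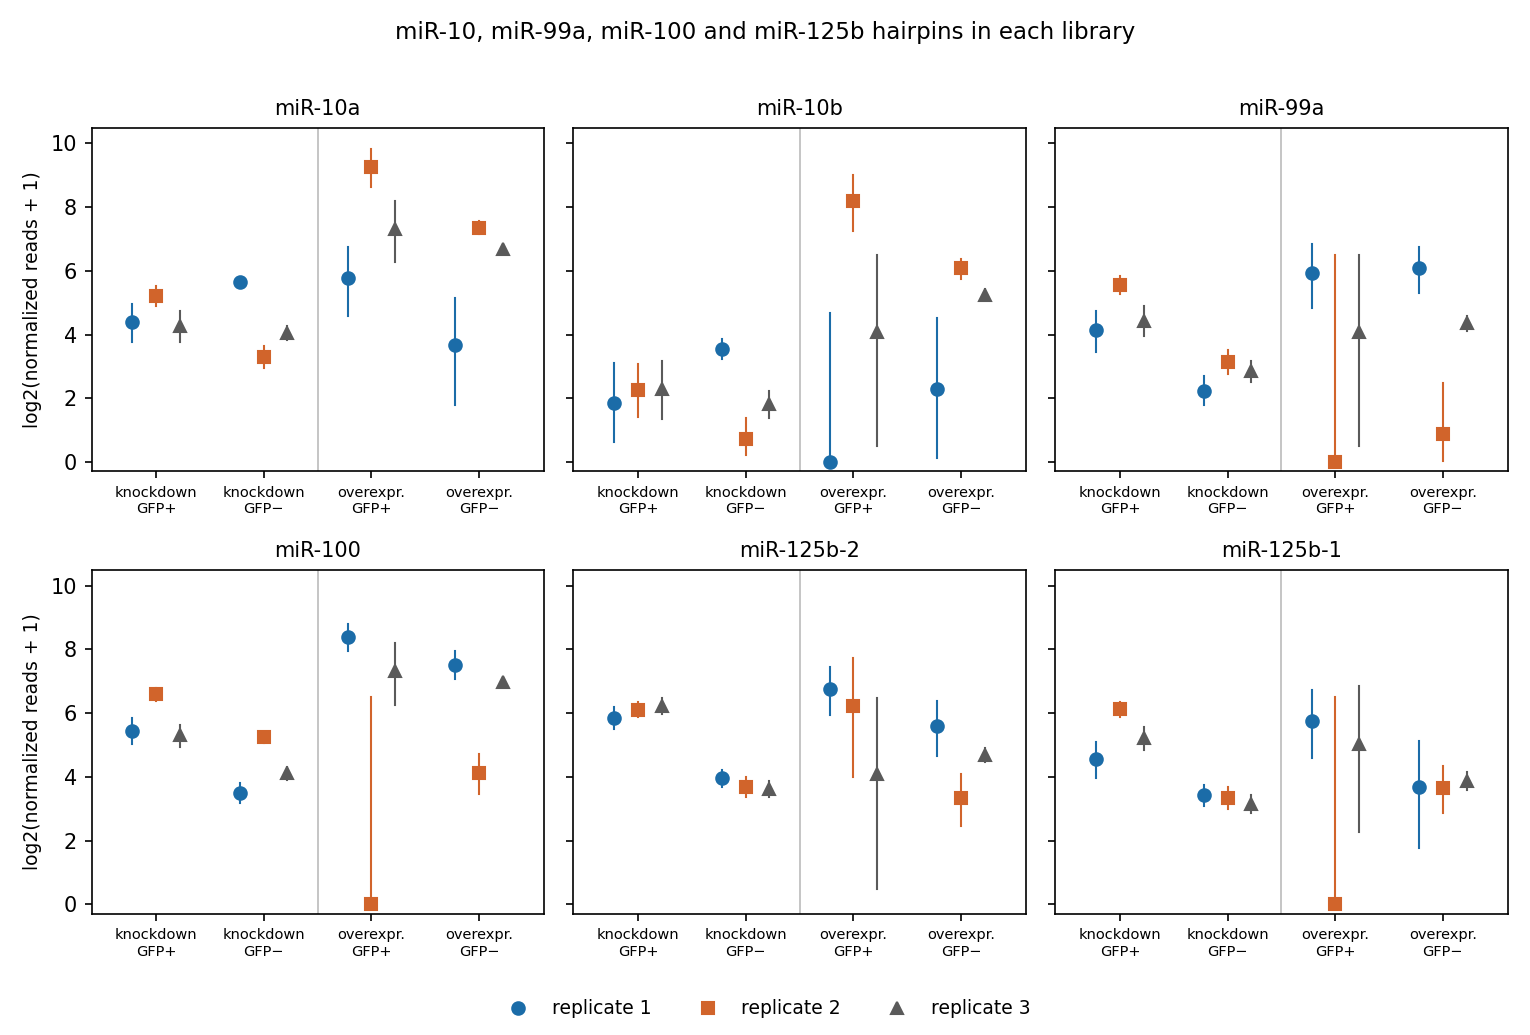
Level of each hairpin in every library, as log2(normalized reads + 1), with the exact Poisson 95% interval of its reads as a bar; the marker gives the replicate number and the grey line parts the knockdown from the overexpression arm. miR-10a and miR-10b peak in overexpression replicate 2, where miR-100 is at its lowest (miR-99a in GFP− cells only, since its GFP+ libraries cannot be told apart at this depth), and miR-125b-2 in knockdown GFP+ cells lies above all 3 knockdown GFP− libraries.

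The opposite runs of miR-10 and of miR-99a with miR-100, seen outside knockdown GFP+ cells, can be read without any scaling, as a share of reads within a library. This measure was chosen after the values were seen and is a description. miR-10a and miR-10b gave 11.9%, 100% and 50% of the reads of these 4 hairpins in replicates 1, 2 and 3 of overexpression GFP+ cells, against 5.88%, 93% and 49.0% in overexpression GFP− cells. In the chicken-aligned table, replicates of the same number thus had nearly the same share in both kinds of overexpression cells, and replicates of different number lay far apart. The Wilson 95% intervals were 6.18% to 21.8%, 90.6% to 100% and 30.7% to 69.3% in the GFP+ cells, from 67, 37 and 22 reads, and 2.31% to 14.2%, 89.6% to 95.4% and 46.8% to 51.2% in the GFP− cells.

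The knockdown arm gave another picture. The miR-10 share was 27.7%, 22% and 27.4% in knockdown GFP+ cells, against 81.2%, 17.4% and 44.7% in knockdown GFP− cells. The GFP+ libraries sat close together, with Wilson intervals that overlap (19.6% to 37.4%, 18.1% to 26.4% and 20.8% to 35.1%), while the GFP− libraries spanned 17.4% to 81.2%. Between same-numbered knockdown libraries the intervals were apart in replicates 1 and 3, with 27.7% in GFP+ cells and 81.2% in GFP− cells of replicate 1, and overlapped in replicate 2. Reads without molecular identifiers are not independent molecules, and these intervals cover counting error only.

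**Figure D2:**
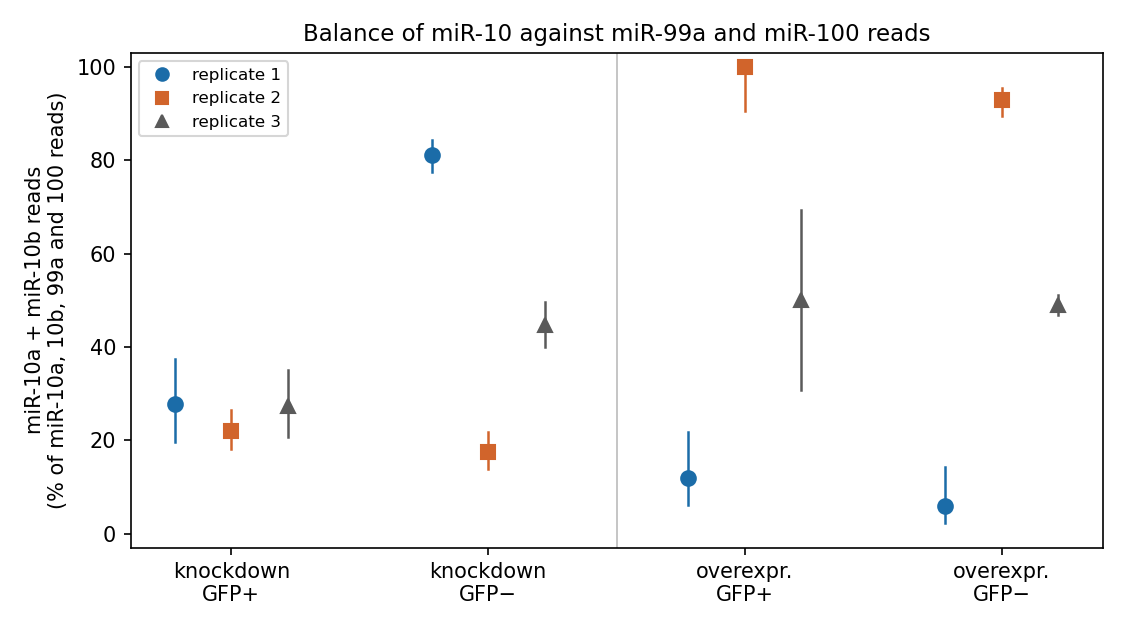
Share of miR-10a and miR-10b reads among the reads of miR-10a, miR-10b, miR-99a and miR-100 in each library, in percent, with Wilson 95% intervals. In the overexpression arm replicate 1 lies at 11.9% and 5.88%, replicate 2 at 100% and 93%, and replicate 3 at 50% and 49.0%; the knockdown GFP+ libraries lie between 22% and 27.7%.

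The summed miR-302 hairpins given above had the same order of replicates as miR-10a and miR-10b in 3 groups, with replicate 2 highest and replicate 1 lowest in both kinds of overexpression cells, and replicate 1 highest and replicate 2 lowest in knockdown GFP− cells. In knockdown GFP+ cells the miR-302 sum was lowest in replicate 2 (11870 normalized reads), where miR-10a was highest. Depth had another order in overexpression GFP− cells, where replicate 3 was deepest. Overexpression GFP+ libraries held 3856, 1292 and 1789 reads in replicates 1, 2 and 3, the reverse of the order of miR-10a and miR-10b and the same order as miR-100. The part of either in the unevenness of miR-10 was not tested.

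Set beside all tested hairpins, this unevenness was wide for miR-100, miR-10b and miR-99a. The members were chosen with their uneven replicates known, so the places below describe them and are no separate support. The residual SD of log2(normalized reads + 1) between replicates was 2.52 for miR-100, 2.39 for miR-10b and 2.07 for miR-99a, which are places 2, 3 and 7 among 132 hairpins with a median of 0.84. miR-125b-1 had 1.62 (place 24), miR-10a 1.47 (place 38) and miR-125b-2 0.92 (place 62). Only miR-7b, at 3.49, spread more widely than miR-100. The 3 widest members each have a 0 in an overexpression GFP+ library, and with a pseudocount of 10 the SD was 1.61 for miR-100, 1.44 for miR-10b and 1.04 for miR-99a. miR-99a then took place 16 and miR-10a place 7. With a pseudocount of 0.5, TMM scaling and scaling to the sum of reads, miR-10a took places 51, 58 and 59. In the shallow overexpression GFP+ libraries alone the SD was 4.57 for miR-100 and 4.10 for miR-10b, where the median hairpin had 1.09. The deep knockdown GFP− libraries also put miR-10b at place 4 (SD 1.43), miR-10a at place 5 (SD 1.2) and miR-100 at place 10 (SD 0.89), where the median hairpin had 0.30. In the knockdown GFP+ cells miR-10b (0.25) and miR-125b-2 (0.19) spread less than the median of 0.44.

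**Figure D3:**
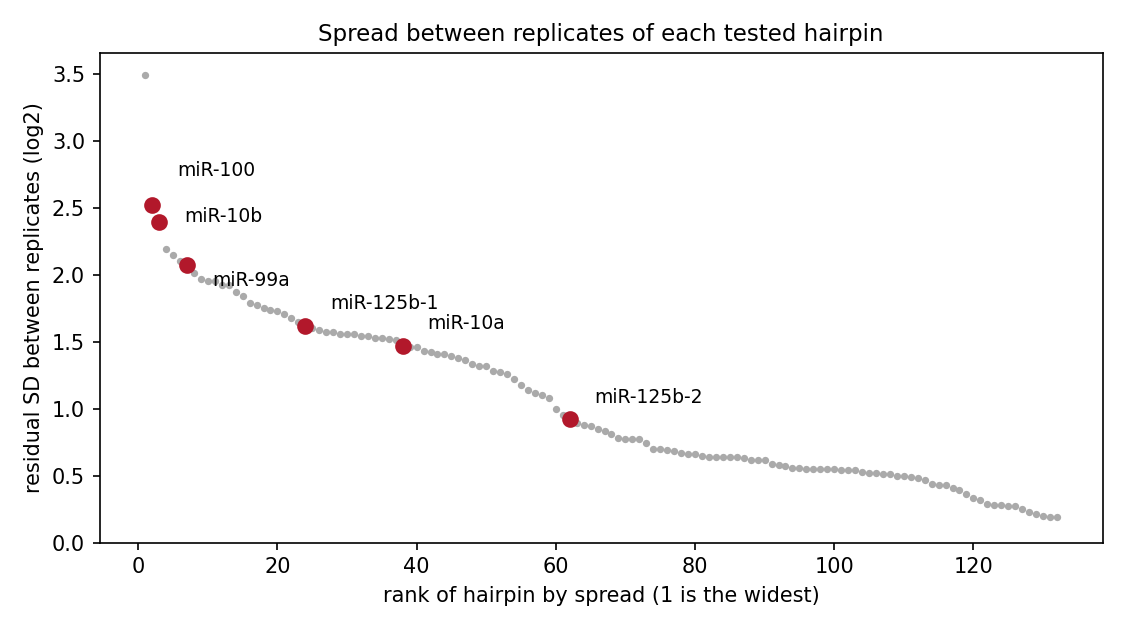
Residual SD between replicates of log2(normalized reads + 1) for the 132 tested hairpins, in order of size, with the members and miR-125b-1 in red. miR-100 (2.52), miR-10b (2.39) and miR-99a (2.07) stand among the 7 widest and miR-125b-2 (0.92) near the median of 0.84. The members were chosen with their uneven replicates known.

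By the difference between their profiles miR-10a paired with miR-10b and miR-99a with miR-100. miR-125b-2 had no such partner among the members over all 12 libraries. As a measure of likeness, the root mean square difference between centred log2 profiles was taken over all 12 libraries and again over the 9 libraries other than overexpression GFP+. Profiles were not scaled to equal spread, so the measure mixes the size of the swings with their shape. miR-10a and miR-10b differed by 1.21 over 12 and 0.56 over 9 libraries, and over the 9 each was the closest hairpin to the other. Over the 12, miR-10b took place 3 from miR-10a. miR-99a and miR-100 differed by 0.96 and 0.76 and were each other's closest hairpin both times. Both pairs are relatives of similar sequence, and how reads that fit more than 1 hairpin were shared out is not stated. The part of shared reads in these likenesses was not tested. miR-10b and miR-100 differed by 4.0 over 12 libraries, where the median hairpin differed from miR-10b by 2.63, and miR-100 took place 130 of 131. Over 9 libraries they differed by 2.20 and it took place 110. The member closest to miR-125b-2 was miR-99a, at place 60 over 12 libraries (1.67) and place 6 over 9 libraries (0.88).

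Outside the family, the hairpins closest to miR-10a over 12 libraries were miR-1456 (1.0), miR-210a (1.04) and miR-204-2 (1.42), and those closest to miR-10b were miR-210a (1.83), miR-18b (1.84) and miR-1456 (1.86). Those closest to miR-100 were miR-181a-2 (1.01), miR-181a-1 (1.05) and miR-1677 (1.09), and those closest to miR-99a were miR-181b-1 (1.12), miR-181b-2 (1.16) and miR-1677 (1.18). For miR-125b-2 they were miR-375 (0.87), miR-27b (0.93) and miR-1552 (0.97). Of the 3 hairpins named for each member, 1 was also named over the 9 libraries, and none for miR-100, so these names change with the shallow libraries. miR-125b-2 and miR-125b-1 differed by 1.72 over 12 libraries and 0.64 over 9.

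In knockdown cells miR-125b-2, miR-99a and miR-100 were higher in GFP+ than in GFP− cells by log2 folds of 1.5 to 2.32, and miR-10a and miR-10b lay close to 0. None of the 5 was called at a limma adjusted p under 0.05 (Benjamini-Hochberg over 132 hairpins, two-sided), where 10.6% of all tested hairpins were. The limma fit shares a spread estimate across all 4 groups, so it also carries the spread of the overexpression libraries. When only the knockdown groups were fitted, miR-99a and miR-125b-2 were called, as were 29.5% of all tested hairpins. The median log2 fold of the 5 was 1.5, beside −0.17 over all tested hairpins, of which 37.1% were above 0. For 3 of the 5, miR-99a, miR-100 and miR-125b-2, every GFP+ library lay above every GFP− library, as it did for 21.2% of all tested hairpins, while 26.5% lay wholly below. The replicate block called none of the 5 and 8.33% of all hairpins. Fold changes are on the log2(value + 1) scale and understate the change of low hairpins.

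The largest and best supported of these differences was that of miR-125b-2. It averaged 66.5 ± 8.60 normalized reads in knockdown GFP+ cells, against 12.5 ± 1.72 in knockdown GFP− cells (SD, n = 3 each), a 5.30-fold ratio of means, with a log2 fold of 2.32 (SE 0.74, 95% interval 0.68 to 3.95) and a limma adjusted p of 0.0784. With the replicate numbers as a block its adjusted p was 0.11. On the recovered whole reads it was called, with an adjusted p of 0.0289 in edgeR's quasi-likelihood test and 2.54e-05 in DESeq2, which called 22% and 27.3% of the hairpins. Fitted without the 3 overexpression GFP+ libraries, an alternative chosen after seeing the data, it was called by limma with an adjusted p of 0.0107, as were 23.5% of the hairpins. Its call thus depends on the tool and on the libraries fitted.

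miR-125b-1 averaged 42.6 ± 23.9 normalized reads in knockdown GFP+ cells, against 8.90 ± 0.911 in knockdown GFP− cells (SD, n = 3 each), with a log2 fold of 2.0 and a limma adjusted p of 0.433. Its adjusted p was 0.0312 in edgeR, 8.18e-05 in DESeq2 and 0.0107 in limma without the overexpression GFP+ libraries. These fits called 22%, 27.3% and 23.5% of all tested hairpins. In limma it was 0.358 with the replicate block and 0.846 with TMM scaling, where miR-125b-2 had 0.11 and 0.155. Of 17 alternatives, 4 called each miR-125b hairpin. Both hairpins yield the same mature miR-125b, so their calls are not independent.

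miR-99a and miR-100 were higher in all 3 knockdown GFP+ libraries, with wider errors. These errors pool the spread of all 4 groups. The SD of log2 values was 0.75 and 0.47 for miR-99a in knockdown GFP+ and GFP− cells, against 3.04 and 2.66 in overexpression GFP+ and GFP− cells. For miR-100 it was 0.71 and 0.89, against 4.57 and 1.83. miR-99a averaged 27.7 ± 16.1 normalized reads in knockdown GFP+ cells, against 5.92 ± 2.10 in knockdown GFP− cells (SD, n = 3 each), with a log2 fold of 1.96 (95% interval −1.35 to 5.27) and a limma adjusted p of 0.566. When only the knockdown groups were fitted its adjusted p was 0.0151, in a fit that called 29.5% of the hairpins. miR-100 averaged 58.8 ± 31.9 in knockdown GFP+ cells, against 21.1 ± 13.96 in knockdown GFP− cells, with a log2 fold of 1.5 (95% interval −2.40 to 5.39) and a limma adjusted p of 0.82. Neither edgeR nor DESeq2 called miR-99a or miR-100.

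miR-10a and miR-10b showed no separation in the knockdown arm. miR-10a averaged 24.8 ± 9.83 normalized reads in knockdown GFP+ cells, against 24.6 ± 21.7 in knockdown GFP− cells (SD, n = 3 each), with a log2 fold of 0.29 (95% interval −2.05 to 2.63) and a limma adjusted p of 0.982. miR-10b had a log2 fold of 0.12 (95% interval −3.67 to 3.91) and an adjusted p of 0.984. These intervals are wide enough to hold several-fold changes in either direction, and the sign of both folds turned under some alternatives. The other Hox-cluster hairpins were too low to test, the highest being miR-196-2 with 2.60, 2.85 and 3.90 normalized reads in knockdown GFP+ cells against 0.142, 0 and 0.599 in knockdown GFP− cells, from at most 7 reads.

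The let-7 hairpins whose genes lie between those of the members rose in knockdown GFP+ cells, with larger log2 folds than their neighbours, a difference that was not tested. let-7c, between MIR99A and MIR125B2, stood at 416, 557 and 666 normalized reads in knockdown GFP+ cells against 48.5, 23.0 and 15.9 in knockdown GFP− cells, a log2 fold of 4.31 with a limma adjusted p of 0.000582. It was the hairpin with the smallest p of all 132 in this comparison. let-7a-2, between MIR100 and MIR125B-1, stood at 299.8, 457 and 297 in knockdown GFP+ cells against 85.6, 45.8 and 34.9 in knockdown GFP− cells, a log2 fold of 2.71 with a limma adjusted p of 0.0115. Its adjusted p was 0.0586 without knockdown GFP+ replicate 2, 0.0517 without knockdown GFP− replicate 2, 0.065 without knockdown GFP− replicate 3 and 0.0583 with TMM scaling, so that its call was lost each time. By its name let-7a-2 (mean 148.9) yields the same mature let-7a as let-7a-1 (200.2) and let-7a-3 (196.7). How reads that fit several of them were shared out is not stated, so its reads cannot be placed at this gene group with certainty. Such copies are also not independent in the let-7 counts below. There were 7.27, 8.19 and 8.98 normalized reads of let-7c per normalized read of miR-125b-2 in knockdown GFP+ cells, against 3.34, 1.95 and 1.41 in knockdown GFP− cells. This ratio separated the groups. The other ratios of a let-7 hairpin to a neighbour overlapped: let-7c over miR-99a was 25.3, 12.1 and 32.3 in knockdown GFP+ cells against 13.1, 2.92 and 2.56 in knockdown GFP− cells. The ratio of let-7a-2 to miR-100 was 7.06, 4.78 and 7.72 in knockdown GFP+ cells against 8.36, 1.24 and 2.14 in knockdown GFP− cells, and that to miR-125b-1 was 13.3, 6.63 and 8.2 against 8.85, 5.02 and 4.42.

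Of the 10 tested hairpins of the let-7 list 8 were called higher in knockdown GFP+ cells, as were 9.85% of all tested hairpins, and the list's 13 hairpins, 2 of them at 0 throughout, summed to 3276 to 4161 normalized reads against 308 to 692 in knockdown GFP− cells. The endoderm and liver list (families miR-375, miR-215, miR-194, miR-192 and the liver miRNA miR-122) was also higher, with 3 of 3 tested hairpins called. These were miR-122-1, miR-122-2 and miR-375, with means of 987.3, 150.5 and 22.22 over the 12 libraries, and the other families were not tested. By name the miR-122 hairpins are copies, so their calls are not independent. The list summed to 2486 to 3272 in knockdown GFP+ cells, against 132.9 to 496.4 in knockdown GFP− cells, while 3 of its 8 hairpins, all named miR-122b, were at 0. Both lists were higher and depth was lower in GFP+ cells in every same-numbered pair, and their part in the miR-125b difference was not tested. No hairpin of the neural, epithelium, mesenchyme, muscle or blood lists was called in this comparison. The sums of the muscle list were nevertheless 71.05 to 165.1 in knockdown GFP+ cells against 249.9 to 688.3 in knockdown GFP− cells, and those of the blood list 56.88 to 93.57 against 106.6 to 167.9, so both lay wholly lower in GFP+ cells. Their part in the miR-125b difference was not tested either.

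**Figure D4:**
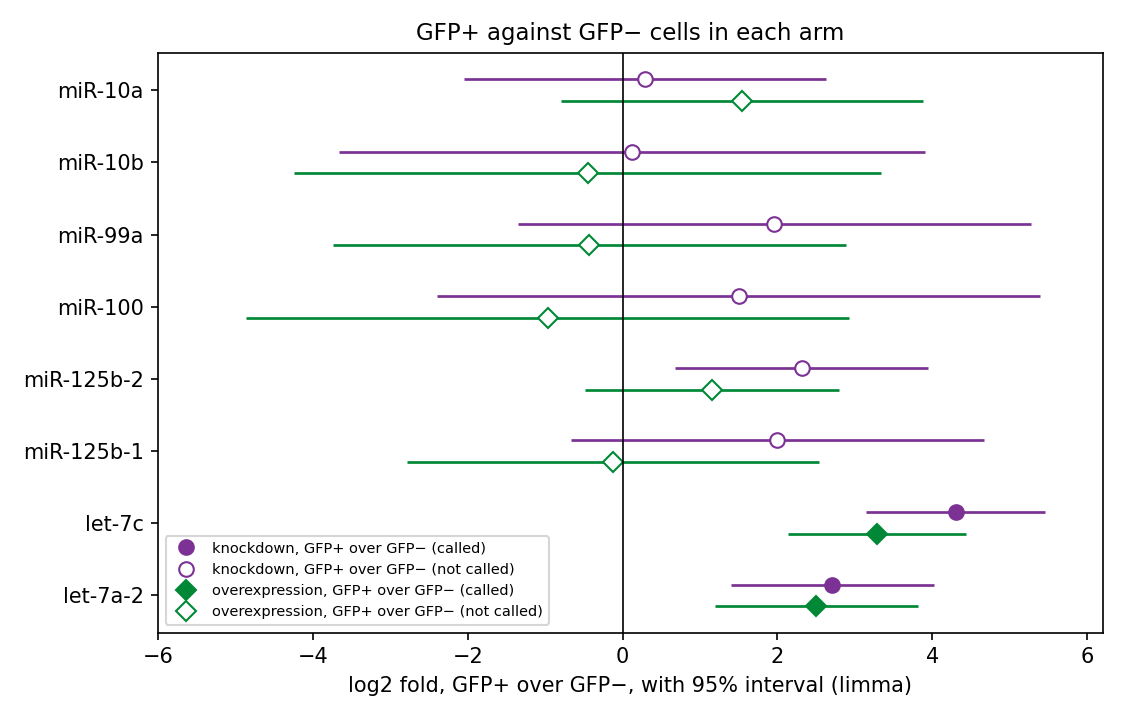
Log2 fold of GFP+ over GFP− cells in each arm with its 95% interval from limma, for the members, miR-125b-1 and the neighbouring let-7 hairpins; filled markers are called at an adjusted p under 0.05. let-7c (4.31 and 3.29) and let-7a-2 (2.71 and 2.50) are called in both arms, let-7a-2 not under every alternative (adjusted p of 0.0583 with TMM scaling in the knockdown arm and 0.103 with only the compared groups in the overexpression arm), while the interval of miR-125b-2 in the knockdown arm (0.68 to 3.95) lies above 0 without passing the adjusted threshold.

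In overexpression cells none of the 5 members was called, where 18.9% of all tested hairpins were, and GFP+ and GFP− libraries overlapped for all 5. edgeR and the replicate block also called none of the 5, with 18.2% and 25% of all hairpins called, nor did DESeq2 (22%) or a fit of the compared groups only (7.58%). The groups did not overlap for 12.9% of hairpins that were higher and 22% that were lower in GFP+ cells. The median log2 fold of the 5 was −0.43, beside −0.67 over all tested hairpins. miR-10a averaged 274 ± 295 normalized reads in overexpression GFP+ cells and 92.4 ± 76.1 in overexpression GFP− cells (SD, n = 3 each), with a log2 fold of 1.54 and a limma adjusted p of 0.294, and was higher in GFP+ cells in all 3 same-numbered pairs. miR-125b-2 averaged 65.3 ± 46.0 in overexpression GFP+ cells and 26.9 ± 19.03 in overexpression GFP− cells, with a log2 fold of 1.15 and a limma adjusted p of 0.265. Without overexpression GFP+ replicate 3, where it rests on 1 read, its log2 fold was 1.95 and its adjusted p 0.0465. That library holds its lowest value of the group, and the share of all hairpins called in that fit was not counted.

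The folds of miR-100 (−0.97), miR-10b (−0.45) and miR-99a (−0.43) had limma adjusted p of 0.713, 0.858 and 0.858, and their signs rest on libraries at 0. Without overexpression GFP+ replicate 2, in which miR-99a and miR-100 have no read, their log2 folds were 1.24 and 1.64, and without overexpression GFP+ replicate 1, in which miR-10b has none, that of miR-10b was 1.60. No direction is therefore drawn for these 3 hairpins in the overexpression arm. miR-125b-1 had a log2 fold of −0.13 with all libraries and of 1.67, with an adjusted p of 0.0404, once overexpression GFP+ replicate 2 was left out. It has no read in that library, and the share of all hairpins called in that fit was not counted. let-7c was again higher, at 147, 97.5 and 238 normalized reads in overexpression GFP+ cells against 15.6, 22.9 and 8.29 in overexpression GFP− cells, with a log2 fold of 3.29 and a limma adjusted p of 0.00137. let-7a-2 had a log2 fold of 2.50 and an adjusted p of 0.0119, which was 0.103 when only the compared groups were fitted. Of the 10 tested let-7 hairpins 8 were called higher here, where 9.09% of all tested hairpins were.

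The difference between the GFP effects of the arms, tested as an interaction, was called for none of the 5 members, and limma, edgeR and DESeq2 called 0% of all tested hairpins, 9 of which had an unadjusted limma p under the threshold. By limma its largest values were −2.47 for miR-100 (95% interval −7.98 to 3.04) and −2.39 for miR-99a (95% interval −7.08 to 2.29), on the log2 scale, each with an adjusted p of 0.818. The intervals span more than 10 log2 units for miR-100, so the arms could not be shown to differ or to act alike. This order changed with the tool: in edgeR and DESeq2 the value was −0.33 and −0.79 for miR-100, and edgeR had its largest values for miR-10b (2.19, against −0.57 by limma) and miR-10a (2.02).

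Among GFP− cells, all 5 members were higher on average in the overexpression than in the knockdown arm, and none was called by limma, which called 0% of all tested hairpins (10 had an unadjusted p under the threshold). edgeR also called 0% and DESeq2 6.06%, no member among them. The median log2 fold of the 5 was 1.57, beside 0.03 over all tested hairpins, of which 53% were above 0. miR-10b averaged 35.8 ± 31.2 normalized reads in overexpression GFP− cells and 4.60 ± 5.34 in knockdown GFP− cells (SD, n = 3 each), a log2 fold of 2.52 with a limma adjusted p of 0.813. miR-100 averaged 109 ± 84.9 in overexpression GFP− cells and 21.1 ± 13.96 in knockdown GFP− cells, a log2 fold of 1.93 with an adjusted p of 0.989. For none of the 5 did all 3 libraries of one arm lie above those of the other, as they did for 9.09% of hairpins that were higher and 6.82% that were lower in the overexpression arm. The arms differ in construct and in anything else done separately, which cannot be told apart.

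The same libraries were also aligned to human hairpins by the authors, which adds a pair of relatives that have no row among the chicken members, miR-125a and miR-99b. In the human genome they flank a let-7 gene in a further group of this kind. The table is another reading of the same 12 libraries and no independent evidence. Of 8 human counterparts 7 passed its filter, miR-10b being too low, and none was called by limma in any of the 4 comparisons, where 8.77% (knockdown), 18.4% (overexpression), 2.63% (interaction) and 0% (GFP− cells) of 114 hairpins were. The replicate block also called none in the knockdown and overexpression arms, where it called 7.89% and 14.9%. edgeR called no counterpart among GFP− cells (0.877% of all hairpins) and 2 in the overexpression arm (23.7%), miR-125a (adjusted p of 0.0176) and miR-99b (adjusted p of 0.00549), which rest on at most 5 reads in any GFP+ library there. miR-99b, with a mean of 20.5, passed the filter only through overexpression GFP+ cells. Its group means were 64.7 there, 14.5 in knockdown GFP+, 0.881 in knockdown GFP− and 1.87 in overexpression GFP− cells. Its call in that arm is therefore no separate support.

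Human-aligned miR-125a stood at 66.3, 44.6 and 44.1 normalized reads in knockdown GFP+ cells against 6.83, 3.34 and 2.58 in knockdown GFP− cells. The groups lie far apart, as they did in the higher direction for 32.5% of the tested human hairpins. Its log2 fold was 3.38 (SE 1.27, 95% interval 0.59 to 6.18) with a limma adjusted p of 0.131, and the ratio of means was 12.2. miR-99b stood at 19.98, 9.58 and 14.03 in knockdown GFP+ cells against 1.09, 1.02 and 0.534 in knockdown GFP− cells, with a log2 fold of 3.0 and a limma adjusted p of 0.259. In edgeR the adjusted p was 0.000651 for miR-125a and 0.00191 for miR-99b, with 40.4% of the hairpins called. In limma without the overexpression GFP+ libraries it was 0.000978 and 0.00312, with 36.8% called. Both fits kept the filter over all 12 libraries, which miR-99b passed only through overexpression GFP+ cells.

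The log2 fold of miR-125a, 3.38, was larger than that of human-aligned miR-125b-2, 2.14, and the difference between them was not tested. Of all human-aligned miR-125 reads, miR-125a took 50.3%, 28.7% and 34.7% in knockdown GFP+ cells against 27.0%, 14.5% and 14.7% in knockdown GFP− cells. The groups lie apart, though GFP+ replicate 2 and GFP− replicate 1 are close, with Wilson intervals of 24.1% to 33.9% and 21.1% to 33.8% that overlap. In overexpression GFP+ cells miR-125a rested on 2, 2 and 0 reads and in overexpression GFP− cells on 0, 0 and 9 reads. Whether these reads come from a chicken gene that lacks a row among the members or from elsewhere was not tested.

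**Figure D5:**
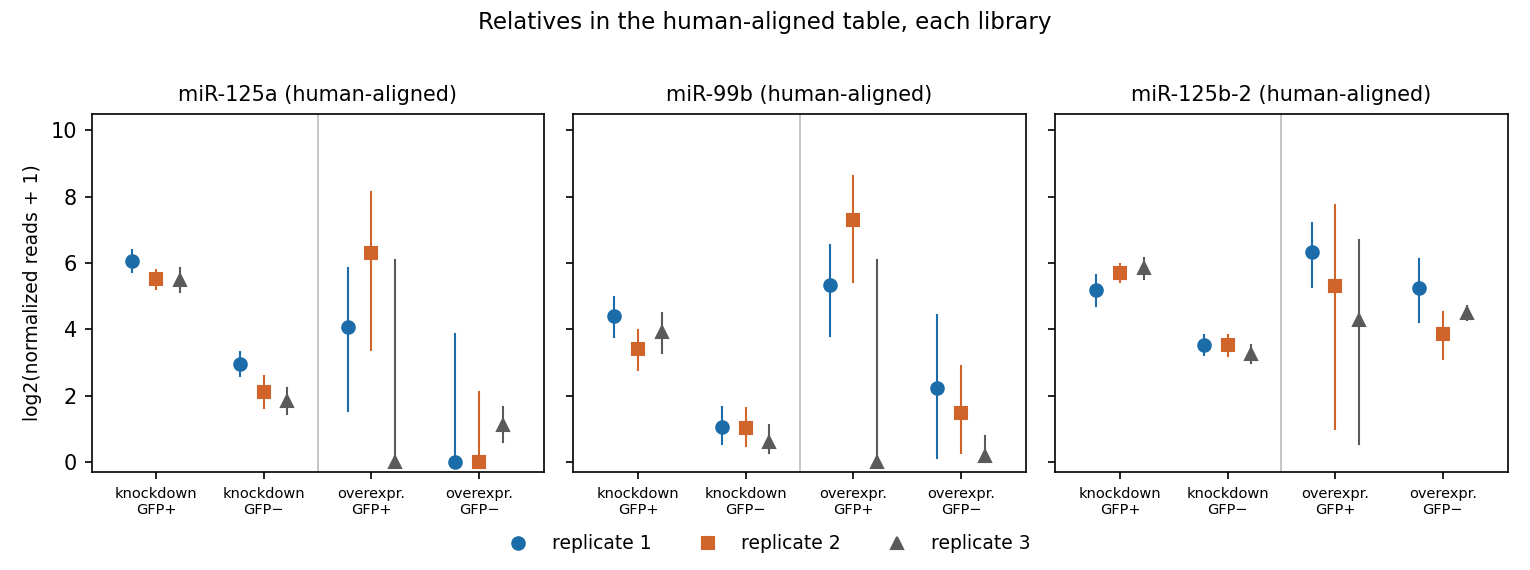
Levels of miR-125a, miR-99b and miR-125b-2 in the human-aligned table by library, as log2(normalized reads + 1) with exact Poisson 95% intervals. miR-125a in knockdown GFP+ cells (44.1 to 66.3 normalized reads) lies above knockdown GFP− cells (2.58 to 6.83), and the bars of the overexpression GFP+ libraries show how few reads stand behind them.

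The human-aligned counterparts of the members had the same order in replicates 1 and 2. The miR-10 share of miR-10, miR-99a and miR-100 reads was 5.41% and 100% in replicates 1 and 2 of overexpression GFP+ cells, against 0% and 74.1% in overexpression GFP− cells. In replicates 1, 2 and 3 of knockdown GFP+ cells it was 15.2%, 5.26% and 26.8%, against 63.3%, 9.15% and 19% in knockdown GFP− cells. The knockdown GFP+ libraries were thus less even than in the chicken-aligned table, with Wilson intervals of 3.22% to 8.5% in replicate 2 and 19.8% to 35.3% in replicate 3. Replicate 3 of overexpression GFP+ cells went against the chicken-aligned share, with 0 of its 11 reads from miR-10, where the Wilson interval reaches 25.9%. For the 0% of overexpression GFP− replicate 1, from 57 reads, it reaches 6.31%. In overexpression GFP− replicate 3 the share was 21.1% from 1397 reads (Wilson interval 19.1% to 23.3%), against 49.0% (46.8% to 51.2%) in the chicken-aligned table. In every other library except overexpression GFP+ replicate 2 the share was also lower than in the chicken-aligned table.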

How the data were processed

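Small RNA was sequenced from 12 libraries of sorted chicken embryo cells in 4 groups of 3. The authors deposited 2 tables of hairpin and mature-arm values, aligned to chicken and to human, whose unit is a normalized signal. Per the submitters' processing notes, FastQC 0.11.5, cutadapt, STAR 2.7.0f and the build hg38 were used. Which chicken build and read counter were used, and how libraries were scaled, is not stated. In every library 100% of the deposited signal values above 0 were whole multiples of 1 step (tolerance 0.001 reads), so whole reads were recovered. Of 911 chicken hairpin entries 61 repeated a name and were dropped, 8 of them above 0.

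After adding a pseudocount of 1, log2 values were used for hairpins with a mean of at least 10 (132 chicken-aligned, 114 human-aligned). They were fitted with limma 3.58.1 in R 4.3.3 (4 group means, empirical Bayes with trend) and called at a Benjamini-Hochberg adjusted p under 0.05. The 4 groups shared an estimate of the spread of each hairpin. The script was tested on simulated data. edgeR 4.0.16 (quasi-likelihood, TMM) and DESeq2 1.42.0 were applied to those whole reads and called 29 and 36 hairpins in the knockdown arm, where limma called 14, and 24 and 29 in the overexpression arm, where limma called 25. Other alternatives changed the pseudocount, filter, scaling, trend, groups fitted and replicate block, or left out single libraries.

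Replicate numbers come from the sample titles, which name each GFP− library as the control of the GFP+ library of its number. Same-numbered GFP+ and GFP− libraries deviated together in the chicken-aligned table (correlations 0.15, 0.379 and 0.144 in the knockdown arm, and 0.207, 0.324 and 0.111 in the overexpression arm). Libraries of different number there ran from −0.389 to 0.192. The highest of these, knockdown GFP+ replicate 1 with GFP− replicate 3, lay above the 0.15 of its own pair. In the human-aligned table the same-number correlations were 0.041, −0.067 and −0.139 in the knockdown arm, and 0.166, 0.36 and −0.126 in the overexpression arm. Both tables read the same libraries, so these values leave unsettled whether same-numbered libraries share embryos. The main fit took no pairing, although the titles name pairs, and the replicate block was run as the paired alternative.

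Named hairpins were the members, miR-125b-1, the Hox-cluster hairpins, let-7c, let-7a-2, the 8 human counterparts and the 3 hairpins closest in profile to each member. Members and lists were chosen with earlier results of these data known. Of 850 chicken names 780 were matched in RefSeq (GRCg7b). Mature sequences were not used here.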

Additional observations from a re-analysis of the deposited data

Results flagged for a closer look

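miR-99a was higher in GFP+ than in GFP− cells in all 3 knockdown pairs and lower in all 3 overexpression pairs, taking libraries of the same replicate number together. The difference of its GFP effects, overexpression minus knockdown, was −2.39 on the log2 scale, and the interaction test did not call it (limma adjusted p of 0.818). The overexpression pairs were 60.2 against 66.4, 0 against 0.819 and 15.9 against 19.6 normalized reads in GFP+ against GFP− cells, which rest on 9, 0 and 1 GFP+ reads and lie within the counting error of their partners.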

How the results depend on the processing

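In the knockdown arm the 0 members called became 1 with edgeR (22% of all tested hairpins called), DESeq2 (27.3%) and limma without the 3 overexpression GFP+ libraries (23.5%). The last was added after seeing the data, and the member was miR-125b-2 each time. The count became 2 with only the compared groups fitted (29.5%). It stayed at 0 under the other alternatives, the replicate block and each left-out library included. In the overexpression arm it was 0 throughout, except for a range of 0 to 1 when single libraries were left out. The share of all hairpins called in those fits was not counted. The interaction and the GFP− comparison gave 0 under every alternative run, and a replicate block could not be fitted for the GFP− comparison, whose arms share no block. The replicate block, a paired fit, changed no call of a member or of let-7c and let-7a-2, and let-7a-2 lost its knockdown call with TMM (adjusted p of 0.0583) and its overexpression call with only the compared groups fitted (adjusted p of 0.103). Human-aligned counterparts called in the knockdown arm numbered 5 with edgeR (40.4% of all tested hairpins called) and 4 without the overexpression GFP+ libraries (36.8%). miR-99b, which passed the filter only through overexpression GFP+ cells, was among them each time. In the overexpression arm the counterparts called numbered 2 with edgeR (23.7%), miR-99b again among them. Leaving out single libraries gave 0 to 2, where the share of all hairpins called was not counted. The causes were not tested.

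The residual SD became 1.44, 3.66 and 3.64 for miR-10b, 1.04, 3.32 and 3.49 for miR-99a, 1.61, 3.82 and 3.98 for miR-100 and 0.77, 2.99 and 3.1 for miR-125b-1 with a pseudocount of 10, TMM scaling and scaling to the sum of reads. The places of miR-100 and miR-10b stayed between 2 and 5, and those of miR-99a ran from 7 to 16. Among 132 hairpins, that of miR-10a ran from 7 (pseudocount of 10) to 59 (scaling to the sum of reads).

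Signs turned only for hairpins that were not called in the affected comparison. In the knockdown arm miR-10a became −0.48 with edgeR, and miR-10b −0.06, −0.92 and −0.41 with a pseudocount of 10, edgeR and DESeq2. In the overexpression arm the same settings gave miR-10b 0.22, 1.27 and 1.40 and miR-125b-1 0.42, 1.63 and 1.54, while edgeR and DESeq2 gave miR-99a 0.46 and 0.18 and miR-100 0.90 and 0.71. For the interaction they gave miR-10b 0.28, 2.19 and 1.82. let-7a-2 became 0.24, 0.11 and 0.30 there with TMM, total scaling and edgeR. Human-aligned miR-99a, miR-100 and miR-125b-1 became 0.45, 0.59 and 1.46 with edgeR in the overexpression arm.

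Leaving out single libraries gave −0.23 to 0.95 for miR-10a and −0.54 to 0.88 for miR-10b in the knockdown arm. In the overexpression arm it gave −2.50 to 1.60 for miR-10b, −1.88 to 1.24 for miR-99a, −2.55 to 1.64 for miR-100 and −1.21 to 1.67 for miR-125b-1. For the interaction it gave −2.62 to 1.48 for miR-10b, −4.05 to 0.15 for miR-100 and −0.71 to 0.30 for let-7a-2. In GFP− cells miR-99a ran from −0.13 to 2.48. Human-aligned values in the overexpression arm ran from −1.21 to 2.59 for miR-10a, −1.96 to 1.26 for miR-99a, −2.26 to 1.53 for miR-100 and −1.06 to 1.84 for miR-125b-1. Depth limits the overexpression GFP+ values, where a count of 0 allows up to 73.1 normalized reads.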
